A study of Mus musculus with 33 samples.

Results

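The genes described here make, cut and cross-link fibrillar collagen. They are the 5 lysyl oxidases Lox, Loxl1, Loxl2, Loxl3 and Loxl4, the lysyl hydroxylases Plod1 and Plod2, the collagen chaperone Serpinh1, the procollagen proteinase Bmp1 and its enhancer Pcolce. They were chosen by symbol, and all 10 had a row among the 17120 genes of the deposited count table. RNA-seq had been performed on 33 cultures in 11 groups of 3, which the study's methods call biological replicates. The sources used here do not say whether the 3 of a group came from separate differentiations. Over all genes, the variation between replicates beyond counting noise was 4.68% (edgeR's common biological coefficient of variation). The p-values given here measure the spread among these cultures only. Mouse embryonic stem cells carrying the ScxGFP tendon reporter were first aggregated into embryoid bodies with LDN-193189, an inhibitor of BMP signaling, and then driven to paraxial mesoderm (PM) with LDN-193189 and the Wnt agonist CHIR, and the PM group was collected on day 6 (D6). The labels call the PM cultures embryoid bodies and the other 10 groups monolayers, while the study's methods name embryoid bodies only for the first step, so the form of the PM cultures on D6 is uncertain. The other 10 groups all received TGFβ1, the hedgehog agonist SAG and FGF2. In the CD1530 groups these were combined with CD1530, an agonist of retinoic acid receptor gamma, which is the study's tendon protocol. In the AGN groups AGN 193109 took the place of CD1530 as the study's fibrocartilage protocol, and it is an inverse agonist, which lowers the basal activity of these receptors. Both were sampled at 5 times, namely D6.25 and D6.75 (0.25 and 0.75 days with these factors), then D7.5 and D8.5 (1.5 and 2.5 days), and last D10 (4 days). The study's methods name no sorting for the reporter before this RNA-seq. Each library pools many cells, so fewer cells of a type and less RNA per cell cannot be told apart. The study's refined protocol also adds AGN 193109 during PM induction, and the sources used here do not say whether these libraries had it, nor which of the study's reporter lines was used.

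Fibrillar procollagen is modified while it is still in the endoplasmic reticulum, where lysyl hydroxylases act on its lysines and SERPINH1 (HSP47) binds and stabilises the folded triple helix. Outside the cell BMP1 removes the C-terminal propeptide, which lets fibrils form, and PCOLCE makes this cut faster. Lysyl oxidases then oxidise lysines and hydroxylysines of collagen and elastin, and the products join into the cross-links that give tendon its tensile strength. LOX itself is secreted as a proenzyme that BMP1 can activate, LOXL1 is tied to elastic fibres, and LOXL2, LOXL3 and LOXL4 form a subgroup with scavenger receptor domains.

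Libraries held 17.1 to 22.8 M counted reads, apart from AGN D8.5 replicate 1 with 38.1 M. That library also stood apart in single genes. Among genes at 5 CPM or more, 8 were over 4 times higher and 3 over 4 times lower there than in both other replicates, against 0 such genes in each of the other 32 libraries, and no lysyl oxidase or collagen processing gene was among them. Levels are given as CPM, a gene's counts relative to its library's total scaled by TMM, and tests compare groups with edgeR's quasi-likelihood fit on all libraries, with Benjamini-Hochberg adjustment over 17120 genes and a call at an adjusted p under 0.05. The summed level of 8 measured tendon markers went from 269 to 283 CPM in PM libraries to 5279 to 5320.5 CPM in CD1530 and 6207 to 6545 CPM in AGN libraries on D10. On D10 Scx, Tnmd, Fmod and Thbs4 had higher means in AGN, with Fmod at 434 CPM in CD1530 and 2087 CPM in AGN. Egr1, Dcn and Tnc had higher means in CD1530, with Dcn at 1054 and 387 CPM, and Mkx was at 36.7 and 37.2 CPM. The sum of 10 cartilage markers was 32 to 36.2 CPM in PM, 321 to 331 CPM in CD1530 and 3504 to 3656 CPM in AGN on D10. In the PM libraries 6 paraxial mesoderm markers summed to 141 to 151 CPM and 5 pluripotency markers to 2338 to 2359.8 CPM, so pluripotency transcripts were still present. Sums of different genes do not rank cell types, and the series holds no undifferentiated sample, so they cannot judge the PM label. By qPCR the study found Nanog, Pou5f1 and Sox2 significantly lower at D6 than in undifferentiated stem cells. The pluripotency sum was still 194 to 199 CPM in CD1530 and 267 to 278 CPM in AGN on D10. The higher AGN sum came from Pou5f1 (26.6 CPM in CD1530 and 149 CPM in AGN on D10). Nanog (46.1 and 35.2), Sox2 (77.9 and 49.2), Esrrb (37.9 and 29.9) and Zfp42 (7.62 and 7.24) had higher means in CD1530. Of the tendon, cartilage, paraxial mesoderm and pluripotency markers 0 had a group mean of 0 in PM or on D10.

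The promoters shown here belong to 3 genes that were lower in CD1530 than in AGN on D10, and each is the 250 bases before the RefSeq start (build GRCm38.p6), written 5′ to 3′ on the gene's strand. Capitals mark any match to letters that stand for a retinoic acid receptor half-site (AGGTCA), a hypoxia response core (ACGTG), a SMAD element (CAGACA) or a TATA box (TATAAA), searched on both strands.
Plod1, chr4:147936777-147937026, minus strand: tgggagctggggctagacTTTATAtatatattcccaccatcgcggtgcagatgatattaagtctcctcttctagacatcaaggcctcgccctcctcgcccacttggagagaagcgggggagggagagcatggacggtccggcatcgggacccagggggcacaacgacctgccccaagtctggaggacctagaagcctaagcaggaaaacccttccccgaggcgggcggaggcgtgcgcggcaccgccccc
Serpinh1, chr7:99353240-99353489, minus strand: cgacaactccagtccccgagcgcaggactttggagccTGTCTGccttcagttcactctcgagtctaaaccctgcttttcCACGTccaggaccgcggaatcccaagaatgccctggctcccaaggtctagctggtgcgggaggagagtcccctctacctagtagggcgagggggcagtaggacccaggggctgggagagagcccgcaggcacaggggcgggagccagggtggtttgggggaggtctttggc
Loxl4, chr19:42612807-42613056, minus strand: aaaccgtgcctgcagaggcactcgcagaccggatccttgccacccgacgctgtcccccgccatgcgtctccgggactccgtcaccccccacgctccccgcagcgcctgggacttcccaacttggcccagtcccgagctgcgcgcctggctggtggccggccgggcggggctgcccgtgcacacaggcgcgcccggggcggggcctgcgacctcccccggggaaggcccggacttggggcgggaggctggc
The Plod1 window held the TATA box letters once, at position -232 from the start. The Serpinh1 window held the SMAD letters at position -213 and the hypoxia core at -171. The Loxl4 window held none of the 4. Among 32851 promoters of the same length, 14% held the half-site letters, 16.6% the hypoxia core, 17.1% the SMAD letters and 12.4% the TATA letters, so a match is common and describes only these letters.

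From PM to D10 every one of the 10 genes rose in both conditions. In CD1530 10 of 10 were called higher, with a median log2 fold change of 3.13, beside 43.3% of all genes called higher and 39.9% called lower and a median of 0.04 over all genes. In AGN 10 of 10 were called higher with a median of 3.18, beside 41.6% of all genes called higher and 40.4% called lower and a median of -0.00. Both comparisons use the same PM libraries. The lysyl oxidases rose between 8.15-fold (Loxl2 in AGN) and 31-fold (Lox in CD1530), and the other genes between 2.97-fold (Plod1 in CD1530) and 10.1-fold (Plod2 in AGN).

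**Figure D1:**
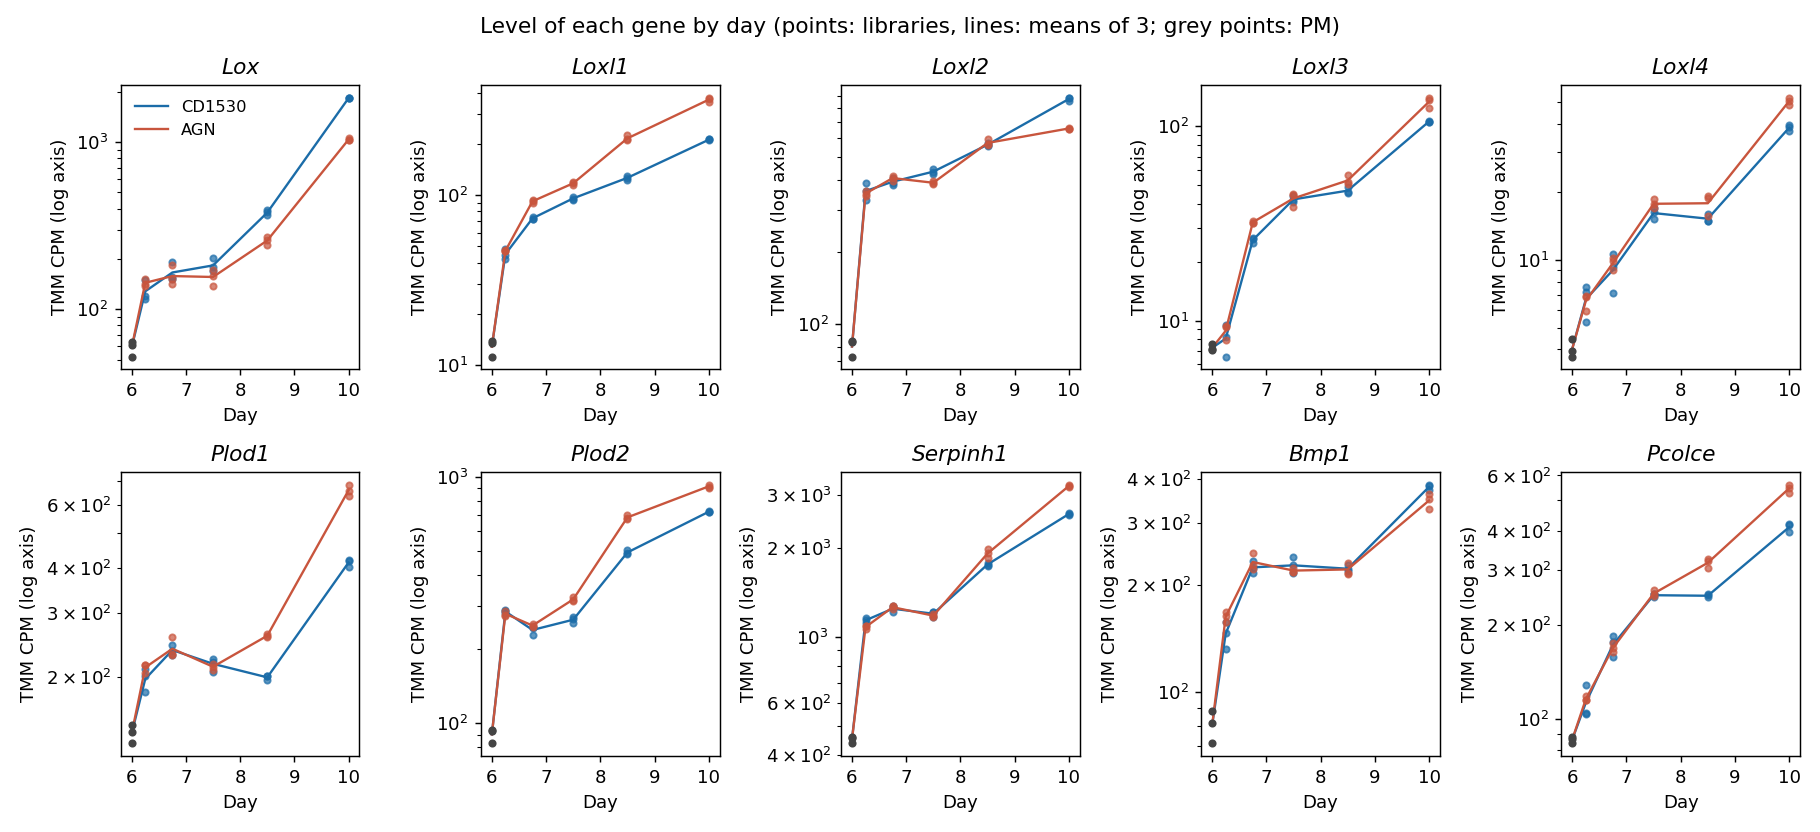
TMM CPM of each of the 10 genes on a log axis against the day of culture, with 1 point per library, lines through the means of 3 libraries and dark points for PM. All 10 genes were lowest in PM and highest on D10, and the CD1530 and AGN lines part for Lox, Loxl1, Plod1, Plod2 and Pcolce by D8.5.

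Lox (ENSMUSG00000024529, chr18:52516067-52529867 on the minus strand of GRCm38) encodes the founding lysyl oxidase and showed the widest range of the 10 genes. PM libraries had 61.3, 63.8 and 52.1 CPM. On D6.25 the libraries had 115, 149.7 and 119.6 CPM in CD1530 and 142, 138 and 152 CPM in AGN, and the highest library up to D7.5 was at 202 CPM. In this early stretch the conditions overlapped at each of 3 time points, and in the order of the 11 group means the 5 steps between the 6 groups of D6.25 to D7.5 all had overlapping libraries. On D8.5 CD1530 libraries had 390.2, 379.6 and 367 CPM and AGN libraries 259, 244 and 271 CPM. On D10 they had 1842, 1837 and 1833 CPM in CD1530 and 1054, 1034 and 1025 CPM in AGN. From D8.5 the conditions no longer overlapped, and the log2 fold change of CD1530 against AGN was 0.56 ± 0.10 (SE, adjusted p = 0.000128) on D8.5 and 0.82 ± 0.10 (adjusted p = 2.8e-07) on D10, which is 1.77-fold. The study picked Lox as one of the genes that separate these same samples, so its difference on D10 is not independent evidence of its direction. Against PM the rise by D10 was 31-fold in CD1530 and 17.5-fold in AGN.

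Loxl1 (ENSMUSG00000032334, chr9:58287738-58313186 on the minus strand) went the other way. PM libraries had 13.9, 13.4 and 11.2 CPM, and on D6.25 the means were 44.8 ± 3.16 CPM (SD, n = 3) in CD1530 and 46.9 ± 0.197 CPM in AGN. From D6.75 every AGN library was above every CD1530 library of the same day, with log2 fold changes of CD1530 against AGN of -0.33 ± 0.04 on D6.75 (adjusted p = 1.57e-07), -0.30 ± 0.04 on D7.5 (adjusted p = 5.96e-07) and -0.78 ± 0.04 on D8.5 (adjusted p = 5.69e-19). On D10 CD1530 libraries had 209, 212 and 212 CPM and AGN libraries 372, 365 and 349.7 CPM. The groups did not overlap, and the D10 libraries of CD1530 overlapped the D8.5 libraries of AGN, which had 210.0, 212 and 224 CPM. The log2 fold change on D10 was -0.78 ± 0.04 (adjusted p = 1.18e-19), that is 1.72-fold higher in AGN.

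Loxl2 (ENSMUSG00000034205, chr14:69609068-69695834 on the plus strand) had most of its rise on the log2 scale within the first 0.25 days of induction. It went from 84.6, 83.7 and 73.1 CPM in PM to 330.0, 387 and 359 CPM in CD1530 and 343, 349 and 359.6 CPM in AGN on D6.25, a rise of 4.46-fold and 4.35-fold. After that CD1530 was higher on D7.5 (433 ± 10.3 against 389 ± 4.53 CPM, log2 fold change 0.16 ± 0.04, adjusted p = 0.00411), not separable on D8.5 (561 ± 9.32 against 570.5 ± 17.9 CPM, adjusted p = 0.69, 95% interval of the log2 fold change -0.11 to 0.06), and higher again on D10. On D10 CD1530 libraries had 857, 880.3 and 876 CPM and AGN libraries 655, 661 and 653 CPM, with a log2 fold change of 0.41 ± 0.04 (adjusted p = 5.8e-11). The counts of Loxl2 are uncertain in size, since 45% of the 50-base stretches of its transcripts (2410 of 5356) also occur in other genes. The most matches, 2299 with repeated matches counted, were in Gm21451, annotated as an unprocessed pseudogene. Gm21451 had 8 to 101 counts in 32 libraries and 1398 in AGN D8.5 replicate 1. The part of the pseudogene in the level of Loxl2 was not tested, and how reads with several alignments were handled is not given in the sources used here. Without that library the D8.5 log2 fold change of Loxl2 was 0.002.

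Loxl3 (ENSMUSG00000000693, chr6:83034173-83052562 on the plus strand) and Loxl4 (ENSMUSG00000025185, chr19:42593982-42612813 on the minus strand) had the lowest CPM per kb of exon of the 10 genes in all 11 groups. Loxl3 had 7.13, 7.04 and 7.54 CPM in PM and between 6.53 and 9.47 CPM over the 6 libraries of D6.25, then 26 ± 0.881 CPM in CD1530 and 32.1 ± 0.4 CPM in AGN on D6.75. On D6.75 AGN was higher with no overlap (log2 fold change of CD1530 against AGN -0.30 ± 0.07, adjusted p = 0.00121). On D10 CD1530 libraries had 107, 106 and 106 CPM and AGN libraries 136, 140.3 and 124 CPM (log2 fold change -0.33 ± 0.06, adjusted p = 6.15e-06). Loxl3 shares 535 of its 4603 exon bases with Htra2 on the other strand, and the strand setting of the counting is not given in the sources used here. Loxl4 had 4.45, 3.92 and 3.72 CPM in PM. On D10 it had 38.9, 37.2 and 39.4 CPM in CD1530 and 50.8, 48.5 and 52.2 CPM in AGN, again without overlap (log2 fold change -0.39 ± 0.08, adjusted p = 9.13e-05).

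Divided by exon length, so that the 5 family members can be set side by side, the summed level of the family was 33.7 ± 2.87 CPM per kb in PM, 235 ± 1.79 in CD1530 and 240.5 ± 4.76 in AGN on D8.5, and 642 ± 1.88 in CD1530 and 489.6 ± 7.92 in AGN on D10. Loxl2 held the highest share of this sum from PM to D8.5. It had 44.2% ± 0.379 in PM, 60.3% ± 1.21 in CD1530 and 57.6% ± 0.656 in AGN on D6.25, and 44.2% ± 0.987 and 43.9% ± 1.37 on D8.5. By D10 Lox led instead, and its lead was larger in CD1530. The share of Lox was 60.2, 59.7 and 59.7% in the CD1530 libraries and 44.4, 44 and 44.6% in the AGN libraries. The share of Loxl1 was 9.91, 10 and 10% in CD1530 and 22.8, 22.6 and 22.1% in AGN. Loxl2 had 25.1% ± 0.284 in CD1530 and 24.8% ± 0.365 in AGN, with overlapping libraries. Loxl3 and Loxl4 were minor in both, at 3.6% and 1.42% in CD1530 and 5.92% and 2.45% in AGN. In an exact two-sided permutation test of the share on D10, p was 0.1 for Lox, Loxl1, Loxl3 and Loxl4, the smallest value that 3 against 3 libraries can give, and 0.4 for Loxl2. With the length taken as the 50-base stretches shared with no other gene, a measure added after the data were seen, Loxl2 had 37.9% in CD1530 and 37.5% ± 0.459 in AGN on D10 and Lox 49.8% and 36.9% ± 0.263, so that in AGN the lead of Lox depends on the length used.

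**Figure D2:**
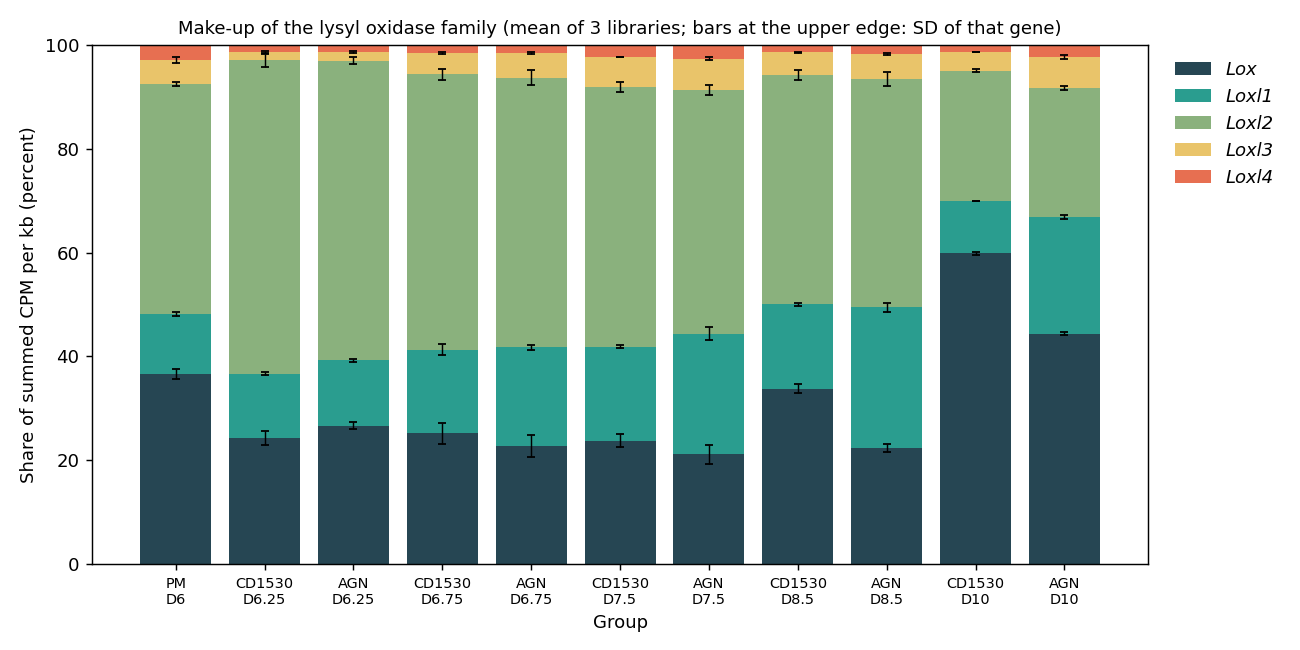
Share of each lysyl oxidase gene, in percent of the family's summed CPM per kb of exon, for the 11 groups in order of day, as stacked means of 3 libraries with the SD of each gene at its upper edge. Loxl2 fills the largest band up to D8.5, while on D10 Lox reaches 59.9% in CD1530 and 44.4% in AGN and Loxl1 9.98% and 22.5%.

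Of the hydroxylases, Plod1 (ENSMUSG00000019055, chr4:147909753-147936767 on the minus strand) acts on lysines within the collagen triple helix. It had 147, 140.5 and 130.5 CPM in PM, and in CD1530 its mean stayed between 197 and 237 CPM from D6.25 to D8.5. On D8.5 CD1530 libraries had 200.1, 196 and 200.4 CPM and AGN libraries 262, 260.0 and 257 CPM (log2 fold change -0.38 ± 0.05, adjusted p = 3.95e-09). On D10 they had 404, 421 and 419.6 CPM in CD1530 and 683, 656 and 637 CPM in AGN, the second largest difference in favour of AGN among the 10 genes (log2 fold change -0.67 ± 0.04, adjusted p = 2.35e-16, 1.59-fold higher in AGN). Plod2 (ENSMUSG00000032374, chr9:92542223-92608428 on the plus strand) hydroxylates lysines of the telopeptides, the sites that lysyl oxidases use, and so shapes the type of cross-link. It jumped early, from 93.4, 94 and 82.9 CPM in PM to 285, 288 and 279.9 CPM in CD1530 and 286, 273 and 274 CPM in AGN on D6.25. AGN then led with no overlap from D7.5, when CD1530 libraries had 256, 269 and 264 CPM and AGN libraries 324, 317 and 313 CPM (log2 fold change -0.28 ± 0.04, adjusted p = 4.23e-08). On the log2 scale the gap was widest on D8.5, at 493 ± 9.45 CPM in CD1530 and 684 ± 12.2 CPM in AGN (log2 fold change -0.47 ± 0.03, adjusted p = 9.34e-15). On D10 libraries had 720.1, 723 and 721 CPM in CD1530 and 911, 929 and 903 CPM in AGN (log2 fold change -0.34 ± 0.03, adjusted p = 4.46e-11).

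Serpinh1 (ENSMUSG00000070436, chr7:99345376-99353239 on the minus strand) had 460.4, 458 and 438 CPM in PM and on D6.25 means of 1137 ± 18.6 CPM in CD1530 and 1079 ± 11.6 CPM in AGN. On D10 it had 2564, 2618 and 2602 CPM in CD1530 and 3258, 3192 and 3223 CPM in AGN. The groups did not overlap, and the log2 fold change was -0.31 ± 0.03 (adjusted p = 2.52e-12), after -0.12 ± 0.03 on D8.5 (adjusted p = 0.00056). Bmp1 (ENSMUSG00000022098, chr14:70474558-70520234 on the minus strand) was called between the conditions at 0 of 5 time points by edgeR and 0 by DESeq2, with an unadjusted p under 0.05 at 2 of them. It had 88.1, 81.5 and 71.4 CPM in PM and lay between 216 and 247 CPM in every library of D6.75, D7.5 and D8.5. On D10 it had 372, 386 and 383 CPM in CD1530 and 352, 363 and 329.6 CPM in AGN. Every CD1530 library was above every AGN library on D10, but the log2 fold change of 0.13 ± 0.06 was not called (adjusted p = 0.0601, 95% interval 0.02 to 0.24). It was called when the fit held only the groups compared (adjusted p = 4.29e-05), with library size in place of TMM (0.01), with the replicate number as a block (0.0419) and without AGN D10 replicate 2 (0.0385). Pcolce (ENSMUSG00000029718, chr5:137605103-137613784 on the minus strand) had 88.1, 86.9 and 83.9 CPM in PM and 249 ± 3 CPM in CD1530 and 252 ± 5.1 CPM in AGN on D7.5. It then parted, to 251, 249 and 245 CPM in CD1530 and 321, 324 and 303 CPM in AGN on D8.5 and to 417, 419 and 396 CPM and 561, 548 and 528 CPM on D10. The log2 fold change was -0.35 ± 0.05 on D8.5 (adjusted p = 8.85e-07) and -0.41 ± 0.05 on D10 (adjusted p = 1.83e-08). The Bmp1 enhancer was thus lower in CD1530 on D10, while for Bmp1 itself no difference was called.

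Comparing the conditions time point by time point asks when the retinoic acid ligands separate these genes. On D6.25 0 of 10 were called by edgeR and 0 by DESeq2, and in edgeR 3 had an unadjusted p under 0.05 (Plod1, Serpinh1 and Bmp1), beside 1.23% of all genes called higher in CD1530 and 0.695% lower. On D6.75 2 were called lower in CD1530 (Loxl1 and Loxl3) and 0 higher, beside 10% of all genes called lower and 7.94% higher. On D7.5 Loxl2 was called higher and Loxl1 and Plod2 lower, beside 15.2% of all genes higher and 11.8% lower. Up to D7.5, therefore, at most 3 of the 10 genes were separated at any one time point. On D8.5 1 was called higher (Lox) and 6 lower (Loxl1, Loxl3, Plod1, Plod2, Serpinh1 and Pcolce), beside 20.4% of all genes higher and 19.6% lower. Without AGN D8.5 replicate 1 the count was again 7, with Loxl4 gained (adjusted p = 0.0139) and Loxl3 lost (0.16), and the call of Loxl3 was also lost without CD1530 D8.5 replicate 1 (0.0759) or replicate 3 (0.0676). On D10 2 were called higher in CD1530 (Lox and Loxl2) and 7 lower (all others but Bmp1), beside 22.7% of all genes higher and 24% lower. The median log2 fold change of the 10 genes was -0.20 on D8.5 and -0.34 on D10, beside 0.00 and -0.02 over all genes. On D10 the sums of 6 neural markers were also apart, at 77 to 80.3 CPM in CD1530 and 16.5 to 18.7 CPM in AGN, and the cartilage sum was lower in CD1530. The 3 measured osteoblast markers summed to 25.5 to 26.6 CPM in CD1530 and 50.7 to 51.8 CPM in AGN, with Runx2 at 13.6 and 42.3 CPM but Ibsp at 12.3 and 5.15 CPM. The paraxial mesoderm markers summed to 45.1 to 50.5 CPM in CD1530 and 67.9 to 76.1 CPM in AGN, with Cdx1 and Dll1 higher in CD1530 (8.76 against 0.0795 and 8.33 against 4.03 CPM) and T at 0.503 and 27.1 CPM. Their part in these differences was not tested.

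**Figure D3:**
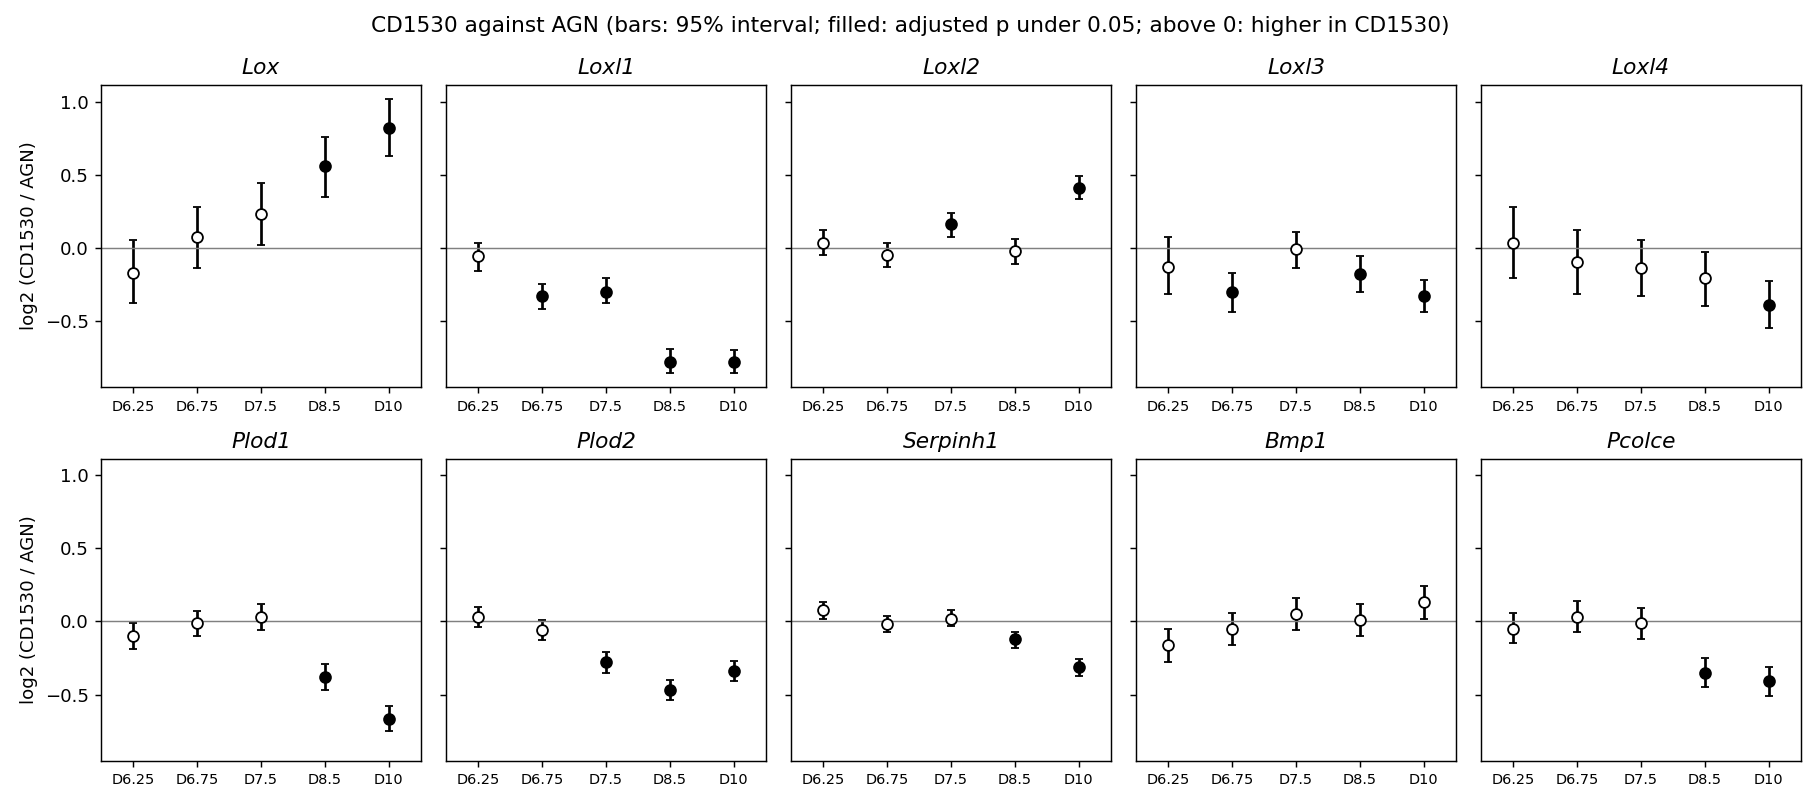
Log2 fold change of CD1530 against AGN for each of the 10 genes at the 5 time points, with 95% intervals, filled where the adjusted p was under 0.05 and above 0 where CD1530 was higher. Lox climbs to 0.82 and Loxl1 falls to -0.78 on D10, while Bmp1 lies between -0.16 and 0.13.

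Whether the gap between the conditions changed over time was tested as an interaction. Over all 5 time points 9 of 10 genes were called, all but Loxl4 (adjusted p = 0.0931), beside 48.8% of all genes. The smallest adjusted p was that of Loxl1 (1.53e-13), followed by Plod1 (2.46e-12) and Plod2 (4.59e-11). For the last step, D8.5 to D10, 2 genes were called with a larger rise in CD1530 and 2 with a larger rise in AGN, beside 12.7% and 14.1% of all genes. Loxl2 rose 1.55-fold in CD1530 and 1.15-fold in AGN (difference in log2 fold change 0.43 ± 0.06, adjusted p = 2.49e-07). Plod1 rose 2.08-fold in CD1530 and 2.54-fold in AGN (-0.28 ± 0.06, adjusted p = 0.000675), and Serpinh1 1.48-fold and 1.69-fold (-0.19 ± 0.04, adjusted p = 0.00033). Plod2 had a difference of 0.13 ± 0.05 (adjusted p = 0.0467), and this call was lost in 12 of its alternatives, among them the fit without AGN D8.5 replicate 1 (0.0513). Lox, which rose 4.85-fold in CD1530 and 4.02-fold in AGN over the step, was not called (0.27 ± 0.14, adjusted p = 0.187), but it was in a fit of only the 4 groups compared (6.77e-09). Loxl1 rose 1.68-fold and 1.69-fold, with a 95% interval of the difference in log2 fold change from -0.12 to 0.11.

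The 10 genes also differed in when they rose. From PM to D6.25 9 of 10 were called higher in CD1530, all but Loxl3 (log2 fold change 0.17 ± 0.10, adjusted p = 0.151), beside 34.5% of all genes higher and 33.3% lower. In AGN 10 of 10 were called, beside 35% higher and 33.1% lower, with Loxl3 the weakest (0.30 ± 0.10, adjusted p = 0.0111) and its call lost without PM replicate 2 (0.058) or AGN D6.25 replicate 3 (0.0527). From D6.25 to D8.5 9 of 10 were called higher in CD1530, all but Plod1 (0.01 ± 0.05, adjusted p = 0.826), beside 33.4% of all genes higher and 29.6% lower, and 10 of 10 in AGN, beside 30.7% higher and 30.2% lower. From D8.5 to D10 10 of 10 were called higher in both conditions, beside 27.4% of all genes higher and 29.9% lower in CD1530 and 29.9% higher and 29.5% lower in AGN.

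Taking the log2 rise from PM to D10 as the whole, Loxl2 had completed 62.8% of it in CD1530 and 70.1% in AGN by D6.25, Plod2 55.2% and 48.6%, and Serpinh1 52.8% and 44.3%. Loxl3 had completed 4.3% and 7.0%, and Pcolce 16.2% in AGN, and they made 65.1% and 61.2% (Loxl3) and 50.7% and 54.2% (Pcolce) of it between D6.25 and D8.5. Plod1 was late, with 67.4% of its rise in CD1530 and 59.9% in AGN after D8.5, and Lox made 45.9% and 48.6% of its rise in that last stretch. Loxl4 was close to that, at 41.3% and 41.7%. These shares are a description and were not tested.

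**Figure D4:**
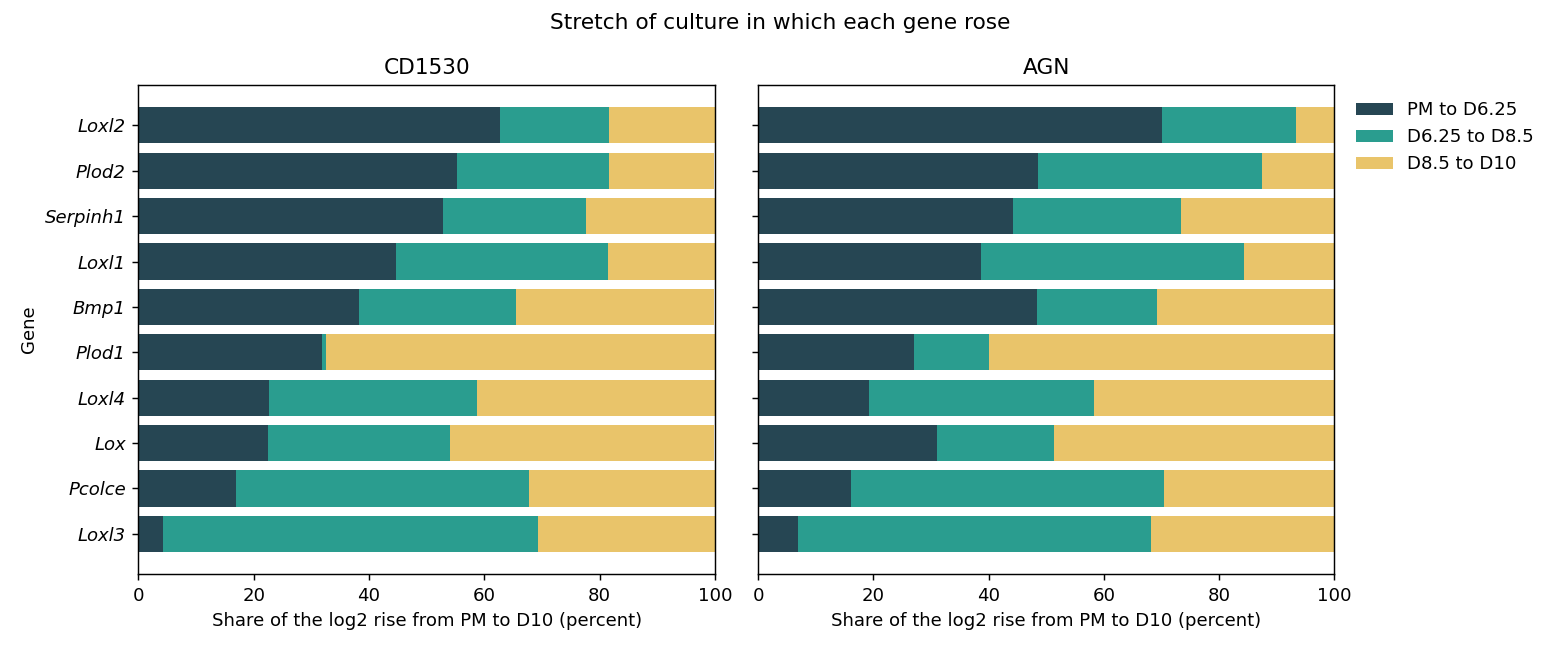
Share of each gene's log2 rise from PM to D10, in percent, that fell in each of 3 stretches of culture, in CD1530 and in AGN, with genes ordered from the top by the first stretch in CD1530. Loxl2 has the longest first stretch (62.8% and 70.1%), and Plod1 the longest last stretch (67.4% and 59.9%).

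Other genes of the same pathway gave a background to these values. Of 16 further genes that modify or fold collagen, 16 were called higher on D10 than in PM in each condition. Over all genes 43.3% were called higher in CD1530 and 41.6% in AGN. Between the conditions on D10 1 was higher in CD1530, 14 were lower and 1 was not called, with a median log2 fold change of -0.40. This stood beside 22.7% of all genes higher and 24% lower. The one higher was P3h2, a prolyl 3-hydroxylase (12.3 ± 1.2 CPM in CD1530, 5.05 ± 0.615 CPM in AGN, log2 fold change 1.29 ± 0.14, adjusted p = 2.6e-10). The largest difference the other way was that of P4ha3, a catalytic subunit of prolyl 4-hydroxylase (37 ± 1.79 against 105 ± 2.74 CPM, -1.50 ± 0.06, adjusted p = 3.95e-23), and Colgalt2, a collagen galactosyltransferase, had -1.11 ± 0.12 (adjusted p = 5.31e-10). Crtap, part of the prolyl 3-hydroxylation complex, had the smallest called difference (-0.12 ± 0.04, adjusted p = 0.0152). P4ha1 had 727 ± 14.3 and 696 ± 19.2 CPM and was not called (adjusted p = 0.18).

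A list of other procollagen proteinases, enhancers and Furin was split. Of 7 measured genes (Tll2 and Mep1a had no row) on D10, 3 were higher in CD1530 (Tll1, Adamts14 and Mep1b). Another 3 were lower (Pcolce2, Adamts3 and Furin) and 1 was not called (Adamts2), with a median of 0.21. Over all genes 22.7% were higher and 24% lower. Tll1, a close relative of Bmp1, had 128 ± 2.63 CPM in CD1530 and 51.9 ± 2.56 CPM in AGN (log2 fold change 1.31 ± 0.07, adjusted p = 2.23e-19). Pcolce2, the second enhancer of this cut, was lower in CD1530 (1.15 ± 0.25 against 3.81 ± 1.53 CPM, -1.72 ± 0.24, adjusted p = 7.97e-08). Mep1b had 1.48 and 0.725 CPM (1.03 ± 0.26, adjusted p = 0.00124) and Adamts3, a procollagen N-proteinase, 3.81 and 5.63 CPM (-0.56 ± 0.18, adjusted p = 0.0101). Of 8 genes for the export of procollagen from the endoplasmic reticulum, 0 were higher in CD1530, 3 were lower (Mia2, Sec23a and Sec24d, by -0.22 to -0.26) and 5 were not called. The all-gene shares were again 22.7% higher and 24% lower, and the counts of these small lists were not tested against them.

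Most of the substrates of these enzymes rose as well. Of 11 fibrillar collagen genes, 10 were called higher on D10 than in PM in CD1530 and 1 was not called, and in AGN 10 were called higher and 1 lower (Col5a3). Over all genes 43.3% were called higher than in PM in CD1530 and 41.6% in AGN. Between the conditions 2 were higher in CD1530, 7 were lower and 2 were not called, with a median of -0.46. This stood beside 22.7% of all genes higher and 24% lower. Col2a1, the main collagen of cartilage, had 145 ± 4.38 CPM in CD1530 and 2497 ± 69.4 CPM in AGN (log2 fold change -4.10 ± 0.05, adjusted p = 2.72e-42), a gene that the study also picked on these samples and that is in the cartilage marker list above. Col11a2 had 3.56 and 68 CPM (-4.25 ± 0.12, adjusted p = 1.31e-28). Col5a3 (0.69 ± 0.11, adjusted p = 1.66e-05) and Col27a1 (0.73 ± 0.06, adjusted p = 2.62e-14) were higher in CD1530. Col1a1, the main collagen of tendon, had 9785 ± 320.4 CPM and 11516 ± 519 CPM and was not called (-0.24 ± 0.10, adjusted p = 0.0532). Summed over the 10 processing genes, the level was 7585 ± 54.4 CPM in CD1530 and 7932 ± 104 CPM in AGN on D10, while the 11 collagen genes summed to 23300.0 ± 449 and 32668 ± 874 CPM. Relative to the collagen sum, the processing genes stood at -1.62, -1.64 and -1.60 on the log2 scale in the CD1530 libraries and -2.04, -2.07 and -2.02 in the AGN libraries, or 3.07 and 4.12 collagen counts for each processing count, with no overlap. The difference was 0.42 (exact permutation test, two-sided, p = 0.1, the smallest possible with 3 against 3), and it was 0.32 with Col2a1 left out and 0.77 as a difference of means of log2(CPM + 1) over genes. Much of the processing sum came from Serpinh1 (2594 CPM in CD1530 and 3224 CPM in AGN) and Lox (1837 and 1038 CPM). The ratio was not recomputed without either gene, so it need not hold for the other processing genes. In PM the same ratio was 2.49 ± 0.18 collagen counts for each processing count.

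**Figure D5:**
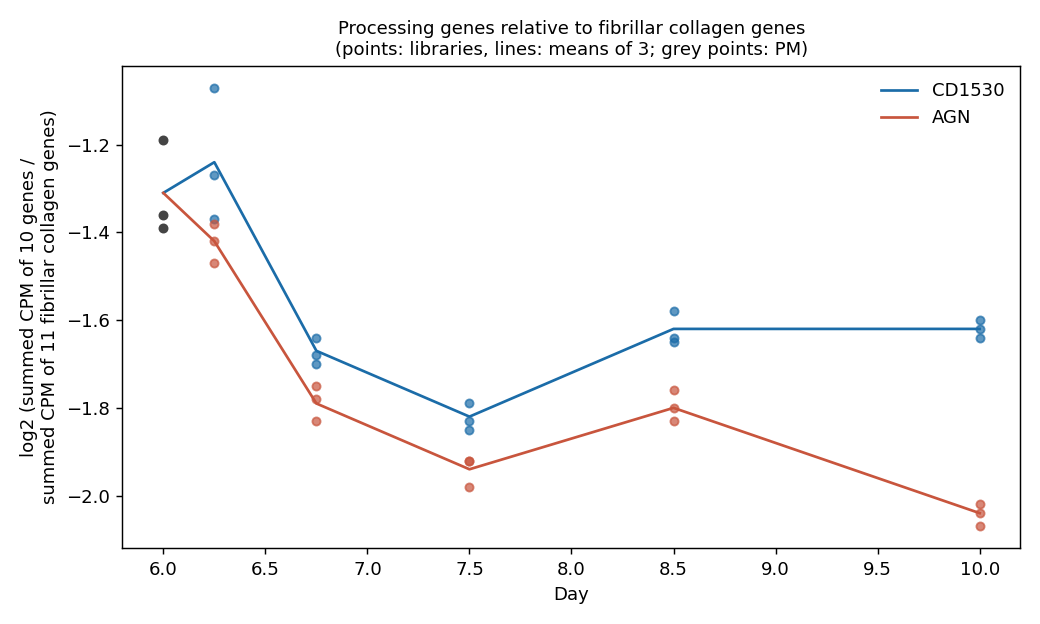
Log2 ratio of the summed CPM of the 10 processing genes to the summed CPM of 11 fibrillar collagen genes against the day of culture, with 1 point per library and lines through the means of 3, which start at PM (dark points). The AGN libraries lie below the CD1530 libraries on each day from D6.25, and on D10 the means were -2.04 and -1.62. On D6.25 the nearest libraries almost touch, at -1.38 in AGN and -1.37 in CD1530.

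Among 9 elastic fibre genes and partners of the lysyl oxidases, 9 rose from PM to D10 in each condition. Over all genes 43.3% were called higher in CD1530 and 41.6% in AGN. Between the conditions 2 of the list were higher in CD1530, 4 were lower and 3 were not called, beside 22.7% of all genes higher and 24% lower. Eln, which encodes elastin, had 1571 ± 26.2 CPM in CD1530 and 632 ± 18.8 CPM in AGN (log2 fold change 1.31 ± 0.04, adjusted p = 4.66e-26), and was thus higher in the condition with more Lox and less Loxl1. Fmod, a collagen-binding proteoglycan that can bind LOX, had 434 ± 7.72 and 2087 ± 101 CPM (-2.27 ± 0.06, adjusted p = 2.95e-24), and Postn, the matricellular protein periostin that helps BMP1 act on LOX, had 1907 ± 26.7 and 6680.3 ± 205 CPM (-1.81 ± 0.08, adjusted p = 4.15e-15). Fmod is also in the tendon marker list above. Fbln5, which tethers LOXL1 to elastic fibres, had 223 ± 3.02 and 386 ± 8.46 CPM (-0.79 ± 0.05, adjusted p = 4.71e-17), a difference in the same direction as that of Loxl1. Ltbp4, which helps place elastin on microfibrils, was higher in CD1530 by 0.22 ± 0.05 (adjusted p = 0.000248).

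A further 3 lists cover retinoic acid, TGF-beta and oxygen signals. Their counts on D10 stand beside 22.7% of all genes higher in CD1530 and 24% lower. Of 6 direct targets of the retinoic acid receptors, 6 were higher in CD1530 on D10, among them Cyp26a1, which degrades retinoic acid (169 ± 5.76 against 2.45 ± 0.263 CPM, log2 fold change 6.11 ± 0.08, adjusted p = 6.33e-41), Stra8 (10.22 ± 0.14, adjusted p = 3.27e-40) and Cyp26b1 (2.44 ± 0.08, adjusted p = 5.8e-25). Already on D6.25 4 of them were called higher, beside 1.23% of all genes higher and 0.695% lower. A link from these targets to the 10 processing genes was not tested. Of 6 measured TGF-beta targets (Ctgf had no row under that name, while Ccn2, the same gene, had), 4 were higher and 2 lower on D10, with Ltbp2 at 1.09 ± 0.08 (adjusted p = 6.11e-14), Ccn2 at -0.22 ± 0.05 (adjusted p = 0.000504) and Tgfbi, which the study also picked on these samples, at -1.33 ± 0.03 (adjusted p = 8.17e-31). Of 11 measured genes of the hypoxia response, to which Lox and Plod2 are known to answer in other cells, 2 were higher (Slc2a1 by 0.56 ± 0.03, adjusted p = 5.54e-18, and Vegfa by 0.17 ± 0.05, adjusted p = 0.00273), 8 were lower and 1 was not called, with Egln3 at -0.93 ± 0.04 (adjusted p = 1.92e-21) and Car9 at -1.14 ± 0.19 (adjusted p = 2.08e-06). Ero1a had no row under that name, while Ero1l had. Lox and Plod2 themselves had log2 fold changes of 0.82 and -0.34 on D10. A link from the TGF-beta or hypoxia genes to the 10 processing genes was not tested.

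The genes most like each of the 10 over the 11 group means, among 9931 genes, were found by the correlation of log2 levels, which is a description over means that share the PM group and the course of culture. Serpinh1 had as nearest Rcn1, Fkbp14 and Pofut2 (r = 0.996 to 0.992), of which Rcn1 encodes a calcium-binding protein and Fkbp14 a prolyl isomerase of the endoplasmic reticulum. Plod1 had AI837181, Nucb1 and Sdf4 (0.988 to 0.982), and Plod2 had Eif1b, Ckap4 and Hspa13 (0.992 to 0.989). Loxl1 had Foxk1, Clip3 and Mfap2 (0.994 to 0.992), of which Mfap2 encodes a microfibril protein. Lox had Arhgap24, Bhlhe41 and Apaf1 (0.990 to 0.987), Loxl2 had Itpripl2, Dync1li2 and Vim (0.995 to 0.994), Loxl3 had Spop, Nlgn2 and Rab22a (0.994 to 0.991) and Loxl4 had Gsn, Foxj2 and Sun2 (0.989 to 0.988). Bmp1 had Sorbs3, Wbp1l and Ube2r2 (0.993 to 0.989), and Pcolce had Septin8, Zbed3 and Sun2 (0.992 to 0.991). Among the 10 genes themselves r ran from 0.71 for Loxl2 with Plod1 to 0.98 for Pcolce with Loxl3 and with Loxl4.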

How the data were processed

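RNA-seq counts of 33 mouse cultures were analysed. Per the labels and the study's methods, the authors aligned reads to GRCm38 with STAR and counted them per gene with featureCounts, and the deposited values are raw counts, not normalized. The release of the annotation, whether counting used strand, and how reads with several alignments were treated are not given in the sources used here. Of 17120 gene identifiers, 17117 matched GENCODE M21, which gave positions and exon lengths.

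Groups were compared with edgeR 4.0.16 in R 4.3.3 (TMM, robust quasi-likelihood fit on all 33 libraries with a mean per group and no covariates). The edgeR filter on low counts removed 0 genes. Totals were 17.1 to 38.1 M per library. Checks covered DESeq2 1.42.0, other scalings, a fit of only the groups compared, a replicate block and leaving out each library. On data simulated for the D10 comparison (17095 genes), 15 of 50 genes changed by 0.3 on the log2 scale, 30 of 50 changed by 0.5 and 41 of 50 changed by 1 were recovered, and 5 of 139 calls were false. Only 50 genes were changed at each size, whereas 7980 of 17120 genes were called on D10 in the real data. The adjusted p thus met a stricter threshold in the simulation, and these rates do not describe the 10 genes.

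The 10 genes, the gene lists and the tests were chosen with earlier results of these data known. From each list, the called genes with the 2 largest and the 2 smallest log2 fold changes on D10 are named, and so are genes without a row. Some genes that this rule names are not reported here. P4ha1, Col1a1, Fbln5, Adamts2, Adamts14 and Furin were named after their values were seen. Likeness was measured on log2(CPM + 1) among genes with a mean of at least 10 CPM. Promoter windows are from RefSeq. Those on chr18, where Lox lies, were left out, and the windows of 4 of the 10 genes were kept. That of Pcolce lies wholly inside the GENCODE gene and is not shown, and that of Loxl4 reaches a few bases into its gene.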

Additional observations from a re-analysis of the deposited data

Results flagged for a closer look

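The difference between CD1530 and AGN changed from D8.5 to D10 for 4 genes by the test of that change in edgeR, beside 12.7% of all genes with a larger rise in CD1530 and 14.1% with a larger rise in AGN. The adjusted p was 2.49e-07 for Loxl2 and 0.0467 for Plod2, both with a larger rise in CD1530, and the call of Plod2 was lost in 12 alternatives. It was 0.000675 for Plod1 and 0.00033 for Serpinh1, both with a larger rise in AGN. Over all 5 time points the difference between the conditions changed for 9 genes, beside 48.8% of all genes. The adjusted p was 3.91e-05 for Lox, 1.53e-13 for Loxl1, 5.12e-08 for Loxl2, 0.0192 for Loxl3, 2.46e-12 for Plod1, 4.59e-11 for Plod2, 4.99e-10 for Serpinh1, 0.0305 for Bmp1 and 1.67e-06 for Pcolce. The call of Loxl3 was lost without CD1530 D7.5 replicate 2 (adjusted p = 0.061) or AGN D7.5 replicate 3 (0.0798). That of Bmp1 was lost in 7 fits that left out 1 library, of D6.25, D6.75 or D10, with adjusted p between 0.0545 and 0.0765. That of Loxl4, not called with all libraries, was gained without CD1530 D6.25 replicate 1 (0.0194) or CD1530 D6.75 replicate 1 (0.00691). Single libraries were not tested as outliers for these genes, since each group holds 3.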

How the results depend on the processing

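Of the values for the 10 genes recomputed under the alternatives, 2357 kept their direction and side of the threshold, 37 changed direction, 27 lost and 13 gained a call, and 6 moved. No called difference was among those that changed direction. With only the groups compared, 1 of 10 genes was called on D6.25. With library size in place of TMM, Loxl2 on D8.5 was 0.006, Plod1 in CD1530 from D6.25 to D8.5 was -0.063 and the step difference of Loxl1 was 0.004. With DESeq2 size factors, Bmp1 on D8.5 was -0.005 and Plod1 over that stretch -0.007, and the DESeq2 test gave -0.005 and -0.007. With only the groups compared, Plod1 over that stretch was -0.012 and the step difference of Loxl1 was 0.037. Without division by length, the D10 share of Loxl2 differed by -0.872 points. The level relative to collagen differed by 0.77 as a mean of log2(CPM + 1) over genes and by 0.32 with the collagen list less Col2a1. The causes were not tested.

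Leaving out each library in turn gave ranges that crossed 0 only for differences that were not called. The number of genes called on D6.25 was 0 to 1. On D6.25 Loxl2 ranged from -0.024 to 0.091, Loxl4 from -0.061 to 0.167 and Pcolce from -0.157 to 0.011. On D6.75 Lox ranged from -0.051 to 0.183, Loxl4 from -0.233 to 0.042, Plod1 from -0.042 to 0.041, Serpinh1 from -0.030 to 0.002 and Pcolce from -0.018 to 0.096. On D7.5 Loxl3 ranged from -0.082 to 0.025 and Pcolce from -0.027 to 0.002, and on D8.5 Loxl2 from -0.037 to 0.002 and Bmp1 from -0.011 to 0.043. Plod1 in CD1530 from D6.25 to D8.5 ranged from -0.044 to 0.060, and the step difference of Loxl1 from -0.045 to 0.018.

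Over all genes, a fit of only the groups compared moved the count of calls on D6.25 from 329 to 804 (408 higher, 396 lower, against 210 and 119) and on D6.75 from 3076 to 1236. With library size in place of TMM, the split of higher and lower calls went from 4686 and 5120 to 3610 and 6520 for CD1530 D10 against D8.5, from 5248 and 5177 to 4156 and 6718 for AGN D8.5 against D6.25, and from 5125 and 5043 to 4041 and 6406 for AGN D10 against D8.5. Same-numbered replicates of the conditions did not deviate together within a day (correlations of -0.18 to 0.07 over 15 pairs). The check did not compare days or the PM group, so it cannot say whether the numbers share a line or differentiation. A replicate block changed 1 of 150 member calls, that of Bmp1 on D10 (0.129, adjusted p = 0.0419).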
